A study of Homo sapiens with 6 samples.

Results

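The transcripts examined here belong to the transforming growth factor beta (TGF-beta) pathway and comprise 9 genes, the ligands TGFB1 and TGFB2, the receptors TGFBR1 and TGFBR2, the signal transducers SMAD2 and SMAD3, the inhibitors SMAD7 and SKIL, and the target TGFBI. They were picked by name, and each symbol matched 1 row of the 35268 named genes in the table. All 9 entered the test, which covered the 13930 genes averaging 10 or more normalized counts. The cells were Rh30, an established line derived from a fusion-positive rhabdomyosarcoma (FP-RMS), a malignancy with features of immature skeletal muscle that is driven by the PAX3-FOXO1 fusion. 3 libraries came from cells given YK-4-279, a compound that interferes with protein partners of ETS family transcription factors, at 1 µM in DMSO for 24 hours, and 3 libraries came from cells given DMSO alone for 24 hours. The comparison asks how transcript levels in FP-RMS cells respond to the drug, and it rests on 1 cell line, 1 dose and 1 time.

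TGF-beta ligands are secreted in a latent form, and once released they bind the type II receptor TGFBR2, which recruits and phosphorylates the type I receptor TGFBR1. The activated receptor complex phosphorylates SMAD2 and SMAD3, which join SMAD4, enter the nucleus and act on target genes together with other transcription factors. SMAD7 and SKIL are themselves among the genes the pathway switches on, and both act against it, SMAD7 at the receptors and SKIL at SMAD complexes on chromatin. In skeletal muscle precursors, TGF-beta is known for holding back differentiation.

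The libraries held between 16724650 and 24677433 reads on named genes. The myogenic factors MYOD1 and MYOG ranged from 34500 to 39100 and from 11100 to 16600 normalized counts, that is, reads scaled to a common library size, whereas MYF5, which is also myogenic, lay between 0 and 1.71. The 7 muscle lineage markers summed to between 65900 and 75500 normalized counts with DMSO and between 71200 and 74900 with drug. The 4 fibroblast markers summed to between 327 and 464 with DMSO and between 433 and 482 with drug, nearly all of it PDGFRA, with DCN and COL6A3 at no more than 1.26 and 3.26. The 4 leukocyte markers summed to no more than 1.00 in any library, the 3 endothelial markers to between 33.4 and 48.0, and the 4 epithelial markers to between 130 and 177. DMSO replicate 1 stood apart, with 6.05% of its reads on mitochondrial genes against 4.74% to 5.03% in the other libraries and a mean correlation with the others of 0.9888 across genes against at least 0.9923. It was the highest DMSO library for 8 of the 9 genes and the lowest for SMAD7, where over all tested genes it was the highest for 45.1% and the lowest for 39.5%, and its part in the results was not tested beyond leaving it out.

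**Figure D1:**
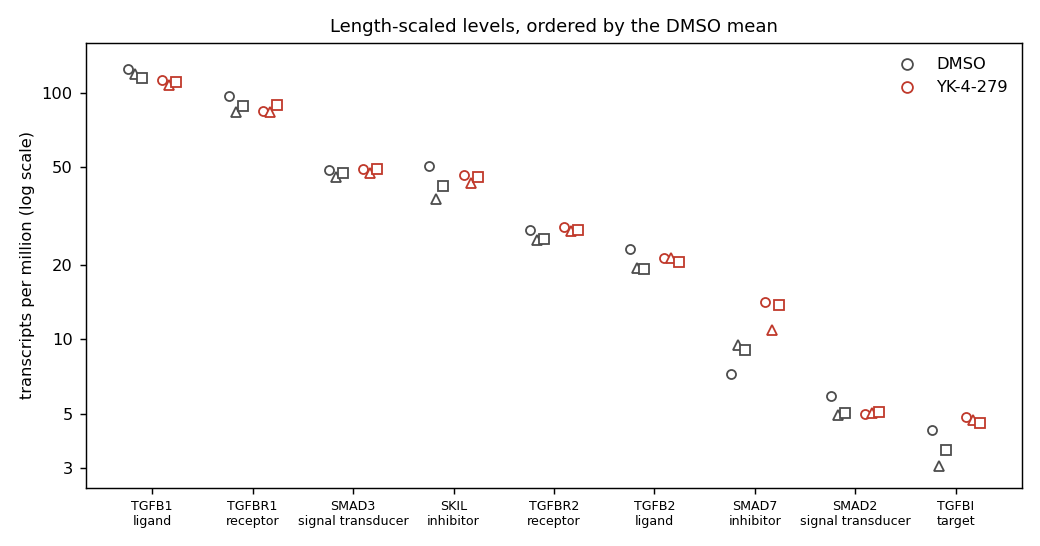
Length-scaled levels (TPM, log scale) of the 9 genes in each library, grey for DMSO and red for YK-4-279, with circle, triangle and square for replicates 1, 2 and 3. TGFB1 stood highest and TGFBI lowest, and SMAD7 shows the widest step between the groups.

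Each of the 9 genes was transcribed in Rh30 cells. Levels between genes were compared in TPM, the share of transcripts in a library after dividing reads by transcript length. With DMSO, the ligand TGFB1 was highest at 120.0 ± 4.88 TPM (SD, n = 3), followed by the type I receptor TGFBR1 at 89.7 ± 6.94 TPM. The transducer SMAD3 at 47.2 ± 1.55 TPM and the inhibitor SKIL at 43.3 ± 6.78 TPM came next and did not differ beyond their spread, as the SKIL libraries ran from 37.2 to 50.6 TPM around those of SMAD3. The type II receptor TGFBR2 at 26.2 ± 1.40 TPM and the ligand TGFB2 at 20.7 ± 2.23 TPM formed the middle of the range. The 3 lowest were SMAD7 at 8.58 ± 1.17 TPM, SMAD2 at 5.29 ± 0.526 TPM and TGFBI at 3.64 ± 0.625 TPM. SMAD3 and SKIL were the only neighbours in this order whose DMSO libraries overlapped. The position of SMAD2 depends on the long transcript that its level was divided by, 34626 bases in GENCODE against 6464 bases for SMAD3. The means with drug fell in the same order, from 110.6 TPM for TGFB1 to 4.70 TPM for TGFBI.

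1 of the 9 genes, SMAD7, differed between drug and DMSO at an adjusted p-value under 0.05 (limma, Benjamini-Hochberg over all genes tested), and it was higher with drug. Over all 13930 genes, 3.41% passed that threshold in either direction, 1.26% higher and 2.15% lower. The drug-treated and DMSO libraries did not overlap for 4 of the 9 genes, with SMAD7 and TGFBI higher and TGFB1 and SMAD2 lower, against 26.0% of all genes tested. The median log2 fold change of the 9 was 0.00, and that of all genes tested was -0.01. Bulk RNA cannot tell a change in transcripts per cell from a change in the make-up of the culture.

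**Figure D2:**
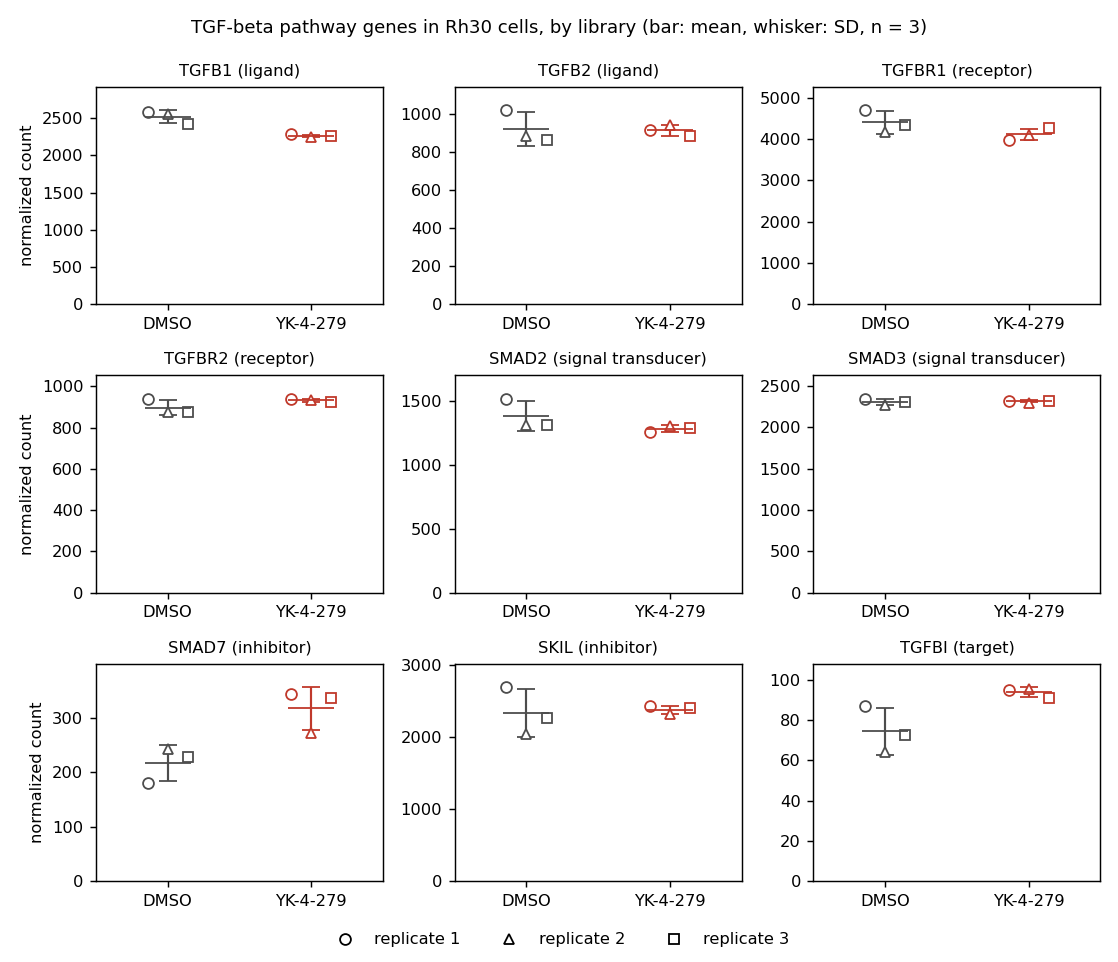
Normalized counts of the 9 genes in each library, with circle, triangle and square for replicates 1, 2 and 3, a bar for the mean and whiskers for the SD (n = 3 per group). Each panel starts at 0. The 3 drug-treated libraries lay above the 3 DMSO libraries for SMAD7 and TGFBI, below them for TGFB1 and SMAD2, and within or across them for the other 5.

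Of the ligands, TGFB1 encodes the most widely expressed TGF-beta and TGFB2 a second isoform. In the order of replicates 1, 2 and 3, used throughout, TGFB1 read 2590, 2554 and 2423 normalized counts with DMSO and 2282, 2247 and 2260 with drug. All drug-treated libraries were below all DMSO libraries, and the drug-treated libraries lay close together. The log2 difference was -0.16 (95% interval -0.28 to -0.03, limma adjusted p = 0.168), which did not pass the test. Without DMSO replicate 1 it was -0.14 with a limma adjusted p of 0.0337. In GENCODE, 6.59% of the exonic bases of TGFB1 lie opposite exons of HNRNPUL1, and the strand setting of the counting is not given in the sources used here. HNRNPUL1 had a mean of 10400 normalized counts and a log2 fold change of 0.00 (limma adjusted p = 0.994).

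TGFB2 read 1019, 880 and 859 normalized counts with DMSO and 914, 941 and 881 with drug. The drug-treated libraries lay inside the DMSO range, with DMSO replicate 1 the highest of the 6. The log2 difference was -0.01, with a 95% interval from -0.18 to 0.16 (limma adjusted p = 0.973). Of its exonic bases 22.7% are shared with TGFB2-OT1 on the same strand, which was listed at 0, and 11.6% lie opposite TGFB2-AS1.

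The receptor TGFBR1, a serine/threonine kinase, read 4697, 4162 and 4338 normalized counts with DMSO and 3983, 4092 and 4252 with drug. Only drug-treated replicate 3 reached into the DMSO range, and the log2 difference was -0.10 (95% interval -0.23 to 0.04, limma adjusted p = 0.420). TGFBR2, the ligand-binding receptor, read 938, 877 and 876 normalized counts with DMSO and 939, 935 and 922 with drug, with all drug-treated libraries near DMSO replicate 1. Its log2 difference was 0.06 (95% interval -0.09 to 0.20, limma adjusted p = 0.698).

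Because the drug is described as acting on ETS factors, the 250 bases upstream of each RefSeq start (GRCh38.p14) were searched on both strands for the letters CCGGAAG, a core that ETS proteins bind. They occurred upstream of 1 of the 9 genes, TGFBR1, and upstream of 8.52% of all 35116 RefSeq promoters. The match is a description of the sequence, and no binding was measured in these data. It is shown at chr9:99103812-99103841, plus strand, with the 7 matched letters in capitals and the first of them at position -228 from the start.
TGFBR1: ccttttcatctcCCGGAAGgaagccttcac

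SMAD2 and SMAD3 carry the signal from the receptors to the nucleus. SMAD2 read 1521, 1317 and 1315 normalized counts with DMSO and 1257, 1306 and 1292 with drug. The groups did not overlap, but the gap between the nearest libraries was far smaller than the DMSO spread, and DMSO replicate 1 was well above the other DMSO libraries. The log2 difference was -0.10 (95% interval -0.26 to 0.05, limma adjusted p = 0.466), and -0.04 without DMSO replicate 1.

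SMAD3 read 2347, 2267 and 2305 normalized counts with DMSO and 2314, 2298 and 2322 with drug. The drug-treated libraries fell within the DMSO range, and the spread inside each group was small. The log2 difference of 0.00 had a 95% interval from -0.12 to 0.13 (limma adjusted p = 0.985), the narrowest interval among the 9 genes.

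Among the inhibitors, SMAD7 rose with drug. It binds the activated type I receptor, competes with SMAD2 and SMAD3, and brings in ubiquitin ligases that degrade the receptor. SMAD7 read 180, 243 and 228 normalized counts with DMSO, from 143, 243 and 273 reads. With drug it read 344, 273 and 337 normalized counts, from 401, 251 and 337 reads. The lowest drug-treated library, replicate 2, was above the highest DMSO library, replicate 2, by a smaller step than the spread inside either group. The means were 217 ± 32.7 and 318 ± 39.2 (SD, n = 3 each), a rise of 0.55 on the log2 scale (standard error 0.13, 95% interval 0.27 to 0.83, limma adjusted p = 0.036).
The rise passed the test with all 6 libraries and in 10 of 17 alternative fits, edgeR and DESeq2 on recovered reads among them, and its size lay between 0.42 and 0.66 in all 17. Without DMSO replicate 1, in which SMAD7 was lowest, it was 0.42 with a limma adjusted p of 0.00261, and it missed the threshold without DMSO replicate 3 (adjusted p = 0.0567) and without drug-treated replicate 1, 2 or 3 (limma adjusted p = 0.226, 0.0821 and 0.173).

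The upstream sequence of SMAD7 is printed because it is the 1 gene of the 9 that rose. The letters searched were CAGAC, the box that SMAD3 and SMAD4 bind, and the longer palindrome GTCTAGAC, both on both strands, in the 250 bases before the start. CAGAC stood at positions -217 and -128 of SMAD7, shown in capitals, and also at -243 and -53 of TGFB2, -16 of TGFBR1 and -107 of SKIL. It was not found in this window of TGFB1, TGFBR2, SMAD2, SMAD3 or TGFBI. For SMAD2, SMAD3 and SKIL the window before the RefSeq start lies inside the gene as GENCODE places it, and for TGFBR1 its last bases do. Of all 35116 promoters, 38.0% held CAGAC and 0.182% held GTCTAGAC, and the palindrome was found in none of the 9. The stretch lies on the minus strand at chr18:48950966-48951215, outside the exons of the gene.
SMAD7: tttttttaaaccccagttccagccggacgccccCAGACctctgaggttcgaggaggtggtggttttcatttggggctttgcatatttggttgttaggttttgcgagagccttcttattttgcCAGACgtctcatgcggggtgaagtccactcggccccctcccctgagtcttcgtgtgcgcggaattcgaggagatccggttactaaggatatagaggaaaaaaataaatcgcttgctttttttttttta

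SKIL, also called SnoN, is a corepressor that binds SMAD complexes. It read 2697, 2046 and 2272 normalized counts with DMSO and 2427, 2322 and 2399 with drug. The 3 drug-treated libraries lay inside the wide DMSO range, which ran from replicate 2 to replicate 1. The log2 difference was 0.04 (95% interval -0.15 to 0.22, limma adjusted p = 0.857). Its value turned on single DMSO libraries, being 0.14 without replicate 1 (limma adjusted p = 0.0323) and -0.06 without replicate 2 (adjusted p = 0.718). The cyclic AMP response element TGACGTCA was found at position -54 from the RefSeq start of SKIL, and 1.65% of all promoters held it. This position lies inside the gene as GENCODE places it.

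TGFBI encodes an extracellular matrix protein and was named for its induction by TGF-beta. It read 87.0, 64.0 and 72.6 normalized counts with DMSO and 95.1, 95.6 and 91.0 with drug, from 64 to 111 reads per library. The groups did not overlap, and DMSO replicate 1 was nearer to the drug-treated libraries than to DMSO replicate 2. The log2 difference of 0.34 (95% interval 0.00 to 0.68, limma adjusted p = 0.268) did not pass the test, and at this depth the interval reached from no difference to a rise larger than that estimated for SMAD7.

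**Figure D3:**
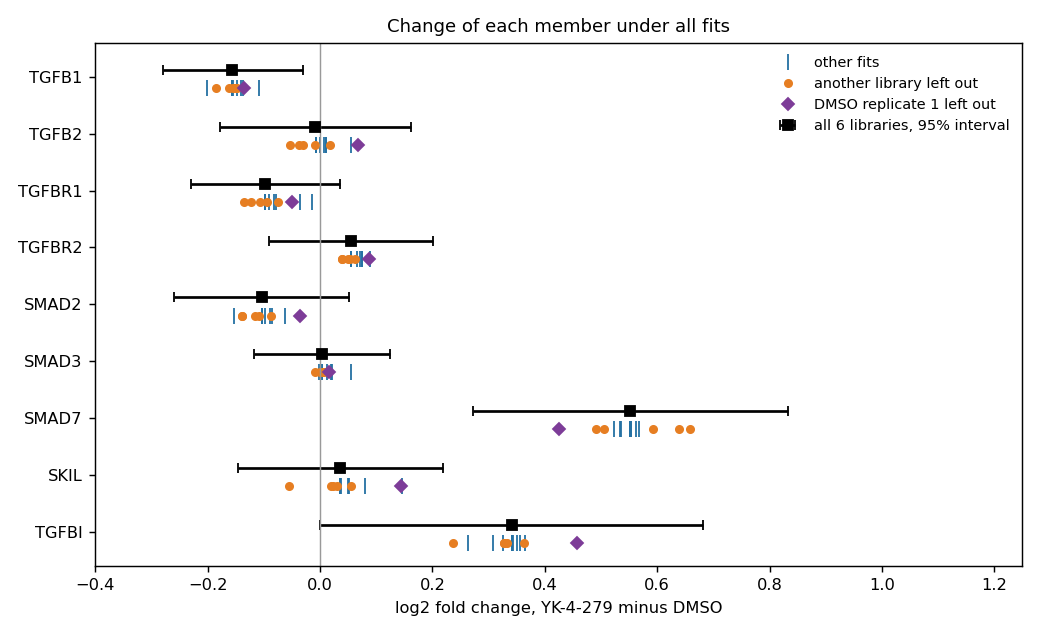
Log2 fold change of each of the 9 genes, drug minus DMSO, with all 6 libraries (black squares, bars are 95% intervals) and below it under other scalings, filters and tests (blue ticks), without DMSO replicate 1 (purple) and without another library (orange). SMAD7 stayed between 0.42 and 0.66, TGFBI between 0.24 and 0.46 and TGFB1 between -0.20 and -0.11, whereas TGFB2, SMAD3 and SKIL lay on both sides of 0.

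How many of the 9 genes passed depended on the fit. With quantile normalization, without the trend in eBayes, without DMSO replicate 3 and without any 1 of the drug-treated replicates, 0 passed in limma. In each of these SMAD7 had an unadjusted limma p-value of at most 0.0084. With all 6 libraries in limma, 18.7% of all genes had an unadjusted p-value under 0.05. SMAD7 was called by edgeR and DESeq2 on all libraries, which does not bear on the fits with 1 library left out. Without DMSO replicate 1, 3 passed in limma, namely SMAD7 and SKIL higher and TGFB1 lower, while the share of all genes passing went from 3.41% to 13.1%. After a smooth trend on GC content and length was taken out of every library, 3 also passed, with SMAD7 (0.52) and SKIL (0.15) higher and SMAD2 (-0.15) lower, while 11.7% of all genes passed. TGFBR1, TGFBR2, TGFB2, SMAD3 and TGFBI did not pass in any of the alternatives in which they were tested.

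For the 3 genes with the smallest adjusted p-values, the genes with the most similar profile over the 6 libraries were sought among genes averaging 100 or more normalized counts, 10699 for TGFBI and 10698 for the others. The profile of SMAD7 was closest to those of B4GALT7, ZNF608 and TTLL11, with Pearson r of 0.996, 0.995 and 0.995, and 72 genes had an r of at least 0.95. TGFB1 was closest to ATP11A, ETS2 and POGLUT3 (r of 0.996, 0.993 and 0.989), with 128 genes at 0.95 or above. TGFBI was closest to NOTCH2, STON2 and PROX1 (r of 0.992, 0.989 and 0.989), with 64 such genes. Of these 9 neighbours POGLUT3 passed the test, with a log2 fold change of -0.45 (limma adjusted p = 0.0057). The 6 points of each correlation share the group difference and the scaling of the libraries, and they are given as a description.

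For the wider pathway, 116 genes were listed by role, the 9 genes included, and 101 of them were tested. The lists were written with earlier results of these data known, so their counts are a description. Some genes, SMAD7 and SKIL among them, stand in 2 lists, so the lists add up to more than these totals. In limma 12 passed, SMAD7 among them, 9 higher and 3 lower, beside 3.41% of all genes, and their median log2 fold change was 0.04. In the 5 lists of pathway components SMAD7 was the 1 gene that passed. Of 13 ligands and latency genes, which store and release the ligands, 0 passed in limma, 5 had an unadjusted p-value under 0.05 beside 18.7% of all genes, and 0 passed in edgeR or DESeq2, where 3.34% and 4.97% of all genes passed. The same was true of 13 receptors and of 10 SMADs and coregulators, with 0 passing by any of the 3 tools and 2 each at an unadjusted p-value under 0.05. Among 14 inhibitors, SMAD7 passed in all 3 tools and FKBP1A, which binds and quietens the type I receptor, in DESeq2 only, in the lower direction. Among 14 activin and bone morphogenetic protein (BMP) ligands and antagonists 0 passed in limma, 4 had an unadjusted p-value under 0.05, and NOG, an extracellular BMP antagonist, passed in edgeR and DESeq2.

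The most abundant gene of each of these groups did not pass the test with all 6 libraries. ITGAV, an integrin chain that releases latent TGF-beta, had 12120 ± 965 normalized counts with DMSO and 10728 ± 85.2 with drug (log2 difference -0.17, 95% interval -0.31 to -0.04, limma adjusted p = 0.149), and its groups did not overlap. CREBBP, a histone acetyltransferase and SMAD coactivator, differed by 0.05 (adjusted p = 0.674), STRAP, which supports SMAD7 at the receptor, by 0.07 (adjusted p = 0.525), and MSTN, a muscle growth inhibitor of the activin branch, by 0.13 on the log2 scale (limma adjusted p = 0.466). The groups did not overlap for STRAP. MSTN passed without DMSO replicate 1, with a log2 difference of 0.25 (limma adjusted p = 3.18e-05), and after the trend on GC content and length was taken out. 6 genes near the threshold were picked out after their values were seen, 4 higher and 2 lower. TGFB3 read 142, 145 and 158 normalized counts with DMSO and 214, 202 and 184 with drug, a log2 difference of 0.43 (limma adjusted p = 0.0599). NOG had a log2 difference of 0.30 (limma adjusted p = 0.056), also without overlap between the groups. The pseudoreceptor BAMBI and the inhibitory SMAD6 had log2 differences of 0.50 and 0.27, with limma adjusted p-values of 0.0902 and 0.086, and in both the groups did not overlap. On the lower side, FKBP1A had a log2 difference of -0.24 (limma adjusted p = 0.0531) and the BMP receptor BMPR1A one of -0.26 (limma adjusted p = 0.0942), again with no overlap between the groups.

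Among the listed genes, those known to be raised by TGF-beta held most of the changes. The list was written with earlier results of these data known, so its counts beside those of all genes are only a description. Of 42 listed, 37 were tested, and in limma 8 passed higher, SMAD7 among them, and 2 lower, beside 1.26% and 2.15% of all genes. In edgeR 10 passed, 1 of them lower, and in DESeq2 12, 2 of them lower, beside 3.34% and 4.97% of all genes. TPM1 passed in both and JUNB in DESeq2, though neither did in limma (adjusted p = 0.0654 and 0.0805). The median log2 fold change of the 37 was 0.11 beside -0.01 over all genes. 25 lay above 0 and 12 below, where over all genes 6684 lay above and 7246 below. The groups did not overlap for 15 higher and 3 lower genes, beside 10.9% higher and 15.1% lower of all genes tested. CDKN2B, an inhibitor of the cell cycle kinases CDK4 and CDK6, read 78.2, 90.9 and 78.5 normalized counts with DMSO and 195, 177 and 178 with drug, and each drug-treated library was far above all DMSO libraries. It rose by 1.15 on the log2 scale (standard error 0.13, limma adjusted p = 7.49e-04) and passed in all 17 alternatives.

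CCN2 and CCN1 are secreted matricellular proteins, which respond to YAP and TEAD as well as to TGF-beta. CCN2 read 243, 272 and 277 normalized counts with DMSO and 403, 418 and 405 with drug, and the log2 rise was 0.63 (standard error 0.09, limma adjusted p = 0.00473). CCN1 had means of 1353 ± 86.3 and 1720 ± 72.3 (log2 fold change 0.35, limma adjusted p = 0.016). BHLHE40, a transcriptional repressor, rose by 0.46 (limma adjusted p = 0.0349). COL1A1, a chain of type I collagen, and the kinase NUAK1, both named after their values were seen, rose by 0.34 and 0.32 (limma adjusted p = 0.0375 and 0.0379).

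2 genes of this list moved the other way. VCAN, the matrix proteoglycan versican, read 6857, 5675 and 5585 normalized counts with DMSO and 4798, 4651 and 4697 with drug, and it fell by 0.35 on the log2 scale (standard error 0.07, limma adjusted p = 0.0218). DMSO replicate 1 was the highest library, and the other DMSO libraries were still above all drug-treated ones. HMGA2, a chromatin architectural protein named after its values were seen, differed by -0.24 (limma adjusted p = 0.0491). FN1, fibronectin, the most abundant gene of the list with 14683 ± 1151 and 14042 ± 195 normalized counts, differed by -0.06 (limma adjusted p = 0.630).

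**Figure D4:**
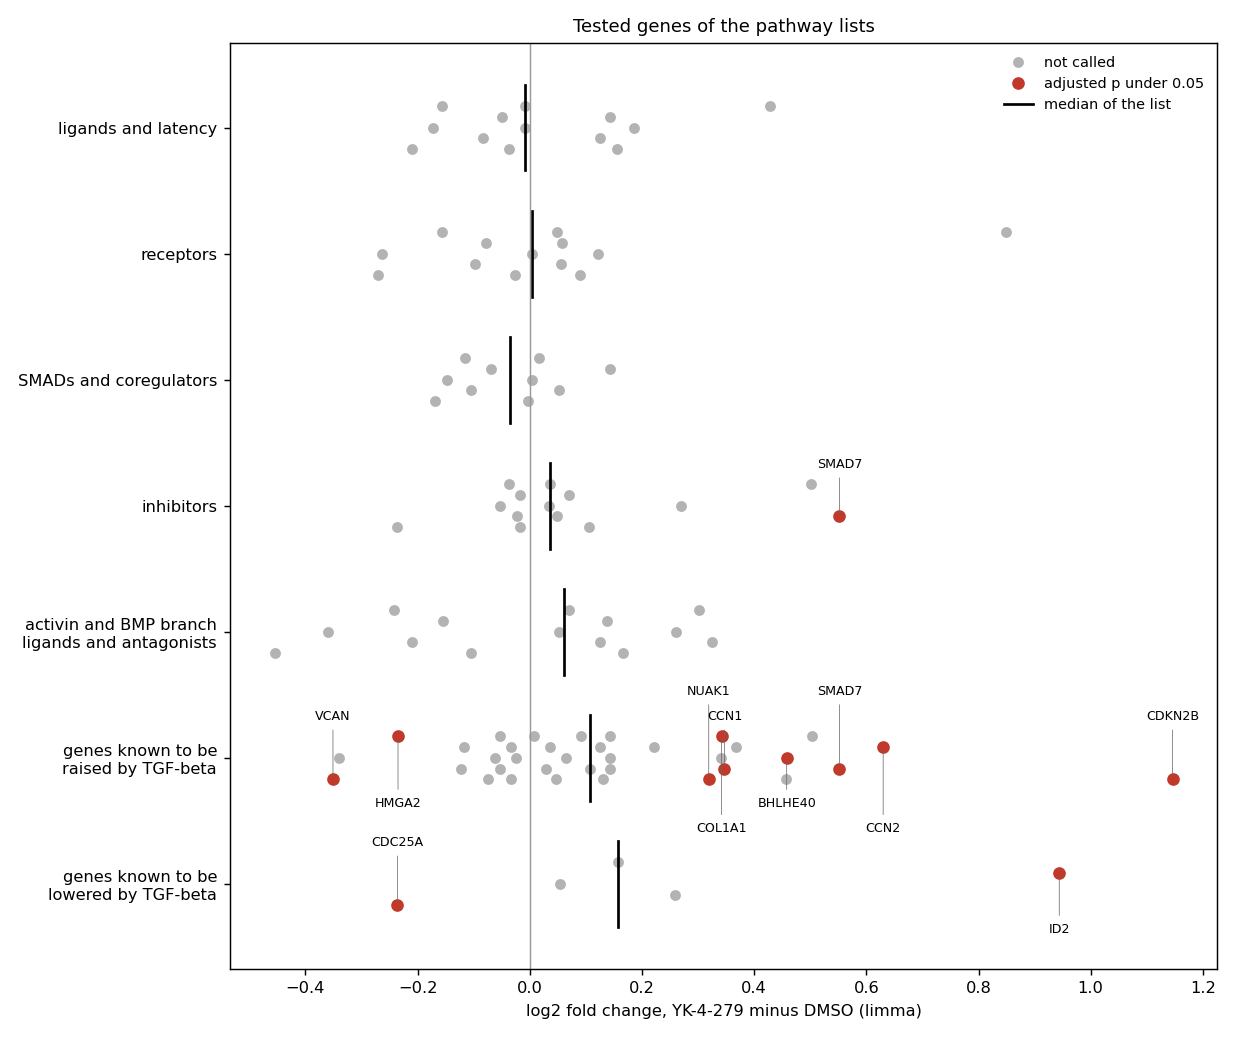
Log2 fold change (drug minus DMSO, limma) of the tested genes in the 7 lists, with red points at an adjusted p under 0.05 and a black line at the median of the list. The lists of ligands, receptors, SMADs and the activin and BMP branch hold no red point, while the list of genes known to be raised by TGF-beta holds 7 to the right of 0 and 2 to the left, with 1 gene of that list not drawn.

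Of 6 genes known to be lowered by TGF-beta 5 were tested, and in limma 1 passed in each direction, beside 1.26% higher and 2.15% lower of all genes. Their median was 0.16. In edgeR 2 passed higher and 0 lower, in DESeq2 2 higher and 1 lower, with ID1, a relative of ID2, the second higher gene in both. ID2, an inhibitor of differentiation-promoting helix-loop-helix factors, read 232, 210 and 214 normalized counts with DMSO and 416, 444 and 404 with drug. The groups were far apart, and the rise was 0.94 on the log2 scale (standard error 0.09, limma adjusted p = 2.8e-04), which passed in all 17 alternatives. CDC25A, a phosphatase that promotes entry into S phase, differed by -0.24 (limma adjusted p = 0.0409). ID3, the most abundant of the list, differed by 0.16 (limma adjusted p = 0.289).

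How many listed genes passed depended on single libraries. Of the 101 tested, 30 passed without DMSO replicate 1, 20 of them higher, beside 13.1% of all genes. Without DMSO replicate 3, 6 passed, beside 242 of all genes. Without drug-treated replicate 1, 2 and 3, 2, 2 and 3 passed, beside 19, 23 and 46 of all genes. CDKN2B and ID2 passed in each of these fits. CCN2 missed the threshold without drug-treated replicate 1 or 2, and VCAN missed it without any 1 of the 3 drug-treated replicates. CCN1, COL1A1, NUAK1 and HMGA2 missed it without DMSO replicate 3 or any drug-treated replicate, and BHLHE40 and CDC25A passed only without DMSO replicate 1 among these fits. With TMM scaling, quantile normalization or edgeR, HMGA2 and CDC25A did not pass either, and BHLHE40 did not pass with quantile normalization. Without the trend in eBayes, CDKN2B, CCN2 and ID2 were the only listed genes that passed, so that SMAD7, CCN1, BHLHE40, COL1A1, NUAK1, VCAN, HMGA2 and CDC25A did not. In GENCODE, 11.9% of the exonic bases of CCN2 lie opposite LINC01013, listed at 0, and 12.8% of those of BHLHE40 opposite BHLHE40-AS1, with a mean of 0.824 normalized counts.

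The upstream sequences of CCN2 and CDKN2B are shown beside that of SMAD7 because all 3 are genes known to be raised by TGF-beta that rose here by 0.55 or more on the log2 scale. Besides CAGAC, the letters GGAATG, bound by TEAD factors, were searched on both strands, and 11.9% of all promoters held them. CCN2 held CAGAC at -177 and GGAATG at -169, -104 and -95. CDKN2B held the reverse of GGAATG, written CATTCC, at -199 and no CAGAC. Among the 9 pathway genes, GGAATG was found upstream of TGFB2 alone, at -185. The AP-1 letters TGANTCA, held by 6.57% of all promoters, were not found upstream of any of the 9 or of the 6 other genes searched. Matches are in capitals, and both stretches lie on the minus strand, at chr6:131951373-131951622 for CCN2 and chr9:22009306-22009555 for CDKN2B.
CCN2: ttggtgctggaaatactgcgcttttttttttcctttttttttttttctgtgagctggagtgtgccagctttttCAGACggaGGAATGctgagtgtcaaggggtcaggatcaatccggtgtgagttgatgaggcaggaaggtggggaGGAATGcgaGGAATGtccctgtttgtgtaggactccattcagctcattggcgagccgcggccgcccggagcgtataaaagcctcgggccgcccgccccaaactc
CDKN2B: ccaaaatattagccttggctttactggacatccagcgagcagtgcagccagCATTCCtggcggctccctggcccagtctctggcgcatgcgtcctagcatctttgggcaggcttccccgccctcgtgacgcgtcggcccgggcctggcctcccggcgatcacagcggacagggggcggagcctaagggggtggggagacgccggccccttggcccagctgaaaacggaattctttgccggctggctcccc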

How the data were processed

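Poly(A) RNA was sequenced from 3 libraries of Rh30 cells per group, grouped by the titles in the labels. The authors trimmed the reads and used STAR 2.7.9a for alignment to hg38 and for counting per gene. What they deposited is a signal scaled per library, that is, normalized counts (DESeq2 1.44.0 is named in the submitters' processing notes). Every value was a whole multiple of its library's factor within 0.001, so that whole reads were recovered for 100% of the values. The gene annotation behind the counts is not given in the sources used here. 1 row without a gene name, with at most 6 reads per library, was left out.

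The main test was that of limma 3.58.1 (R 4.3.3; lmFit, then eBayes with trend) on log2(normalized count + 1) over genes with a mean of at least 10, two-sided, with Benjamini-Hochberg adjustment over all 13930 genes and a threshold of 0.05. Fold changes on that scale understate changes of genes with few reads. Nothing in the labels says that replicates were separate cultures, so p-values measure the spread between these samples, which may be technical. The same-numbered samples did not deviate together (correlations -0.098, -0.027 and -0.027), and the numbers were not used as a block. TPM were computed from recovered reads and the length of the canonical GENCODE 44 transcript, and positions and GC content (98.4% of the genes tested) came from the same release. Promoters are the 250 bases before the RefSeq start nearest to the gene's GENCODE start, found for 9 of 9 members and 6 of 8 other named genes that passed. For SMAD2, SMAD3, SKIL and ID2 these bases lie inside the gene as GENCODE places it, and for TGFBR1 and VCAN a part of them does. Intervals are 95% limma intervals.

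The members and the lists were chosen with earlier results of these data known. By rule, values were given for the 9 members and, per list, for the gene with the highest mean and up to 6 genes passing the test with a mean of at least 100. Genes marked above as picked out or named after their values were seen fall outside this rule, as do TPM1 and JUNB. Likeness was measured for the 3 members with the smallest adjusted p. The fits were repeated with other pseudocounts, other filters, TMM or quantile scaling, no trend, the replicate number as a block, 1 library left out at a time, edgeR 4.0.16 or DESeq2 1.42.0 on recovered reads, and a smooth trend on GC content and length taken out. The code was tested on simulated data. No correction was made for genes overlapping on opposite strands. 1 listed gene that entered the counts is not reported here by name.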

Additional observations from a re-analysis of the deposited data

How the results depend on the processing

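Over all genes, 475 passed in limma, 176 higher and 299 lower. The number was 277 with quantile normalization (132 higher and 145 lower), 33 without the trend in eBayes (30 higher and 3 lower), 1603 after removing the trend on GC content and length, and 19 to 1823 when 1 library was left out. Higher calls outnumbered lower ones without drug-treated replicate 1 (15 and 4), 2 (16 and 7) and 3 (28 and 18). Of the 9 members, 1 passed with all libraries, 0 with quantile normalization, 0 without the trend in eBayes, 3 after removing the GC and length trend, and 0 to 3 when 1 library was left out. Where 0 passed, SMAD7 had an unadjusted limma p of at most 0.0084, and on all 6 libraries it passed in edgeR and DESeq2. With all 6 libraries, 18.7% of all genes had an unadjusted limma p under 0.05. Of the wider pathway, 12 genes passed, 9 higher and 3 lower, against 3 without the trend in eBayes, 28 after removing the GC and length trend, 2 to 30 when 1 library was left out, and 10 with TMM scaling (9 higher and 1 lower). With the replicate block, 180 genes, 0 of the 9 members and 6 pathway genes passed, SMAD7 had a limma adjusted p of 0.070, and BHLHE40, COL1A1, NUAK1, HMGA2 and CDC25A did not pass either, although the numbers were not found to pair the samples. The causes were not tested.

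Sign changes were seen in 3 members, all near 0. TGFB2 was 0.0077 with TMM scaling, 0.011 with quantile normalization, 0.011 in edgeR and 0.055 after removing the GC and length trend, and -0.054 to 0.068 when 1 library was left out. SMAD3 was -0.0022 after removing that trend and -0.009 to 0.016 when 1 library was left out, and SKIL ranged from -0.055 to 0.144 in those fits. The median of all genes moved by less than 0.1 in every fit. Groups of 3 limit the precision, and TGFBI and SMAD7 rested on the fewest reads.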
